A study of Homo sapiens with 6 samples.

Results

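The SALL family of zinc finger transcription factors was followed in SNU-398 cells, an established line of human hepatocellular carcinoma grown in RPMI medium with serum. Its members are SALL1, SALL2, SALL3 and SALL4, the vertebrate relatives of the Drosophila gene spalt. They were taken by gene annotation alone, and each of the 4 genes is measured by 1 of the 32319 probe sets on the Affymetrix array (18404 named genes in all). Total RNA came from 3 cultures with a short hairpin RNA (shRNA) against SALL4 and from 3 cultures with a scrambled control shRNA, which the labels call biological replicates. The labels give no hairpin sequence, vector, time after treatment, second SALL4 hairpin or rescue. Lower SALL4 and any other effect of the hairpin cannot be told apart, and 1 cell line stands for liver cancer.

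SALL proteins carry pairs of C2H2 zinc fingers spread along the protein and a short N-terminal motif that binds NuRD, a complex that joins nucleosome remodelling to histone deacetylation, so they act largely as repressors. SALL4 is made in embryonic stem cells, germ cells and fetal liver, is silent in adult hepatocytes and returns in a subset of hepatocellular carcinomas, which is why it is called oncofetal. SALL1 is needed for kidney development and is mutated in Townes-Brocks syndrome, SALL4 is mutated in Duane-radial ray syndrome, SALL2 is the most divergent member and has been described as a regulator of proliferation, and SALL3 is a gene of the developing nervous system. SALL1 and SALL4 can form heterodimers, and SALL proteins can occupy shared sites in mouse embryonic stem cells. The comparison asks how deep the loss of SALL4 was, at what intensity its paralogs were measured before it, and whether any paralog was higher after it.

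RefSeq places SALL4 on chromosome 20, SALL1 on chromosome 16, SALL2 on chromosome 14 and SALL3 on chromosome 18, so no pair shares a chromosome. The promoter table (RefSeq, GRCh38.p14) matched 2 of the 4 members. Their windows of 300 bases, 250 before and 50 after the annotated start, are shown because only these 2 had an entry. The first entry of each gene was taken, and any other start of the gene was not examined. CG dinucleotides are in capitals. The SALL2 window is chr14:21537072-21537371 on the minus strand and the SALL3 window chr18:78979568-78979867 on the plus strand.
SALL2: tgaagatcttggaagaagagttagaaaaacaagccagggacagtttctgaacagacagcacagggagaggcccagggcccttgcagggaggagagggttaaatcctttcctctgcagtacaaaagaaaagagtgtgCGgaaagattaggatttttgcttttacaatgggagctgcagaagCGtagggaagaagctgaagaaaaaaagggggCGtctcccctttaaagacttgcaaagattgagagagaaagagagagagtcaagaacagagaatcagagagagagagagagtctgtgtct
SALL3: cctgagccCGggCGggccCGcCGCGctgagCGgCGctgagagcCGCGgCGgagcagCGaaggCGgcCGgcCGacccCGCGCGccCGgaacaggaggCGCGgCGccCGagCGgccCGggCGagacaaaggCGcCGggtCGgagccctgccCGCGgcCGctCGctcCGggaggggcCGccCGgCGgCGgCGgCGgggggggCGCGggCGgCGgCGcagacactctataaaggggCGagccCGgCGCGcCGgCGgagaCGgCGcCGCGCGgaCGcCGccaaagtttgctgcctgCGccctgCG
The SALL2 window has 3 CG dinucleotides and 46% G and C, and is rich in purine runs. The SALL3 window has 59 CG dinucleotides and 83% G and C, more CG than 99.9% of the 35116 promoters of the table, against 18.2% for SALL2. The median promoter has 14. The letters ATATT, an A and T rich word known to be bound by the last zinc finger cluster of SALL4 in mouse, occur on neither strand of either window and on at least 1 strand of 23% of all promoters. The TATA box letters TATAAA occur in the SALL3 window, beginning 28 bases before the start, and in 11.5% of all promoters on either strand, but not in the SALL2 window. ATATT and TATAAA, read on either strand, can overlap by at most 3 letters. The lack of a match says only that these letters are not in the window.

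The deposited values are intensities on a linear scale with a floor at 10, at which 15.5% to 16.9% of the values of an array lie. Array medians were between 47.85 and 51.69. On the second principal component knockdown replicate 2 (-23.6) and scrambled replicate 3 (-18.0) stood apart from the others (all above 0). Mature hepatocyte markers were dim: ALB (albumin) was between 10.1 and 12.8 on the 6 arrays, 2 of 6 measured markers (APOA1 and APOA2) were bright enough to be tested, and the summed level of the 6 was 156 to 182 in knockdown arrays and 160 to 205 in scrambled arrays. Of 3 fetal liver and liver cancer markers, GPC3 was at 119 to 165 and DLK1 at 38.9 to 67.4. AFP, the third, was at 10.6 to 17.8 and too dim to be tested. The blood marker PTPRC was at the floor on all 6 arrays, and 0 of 3 blood and 0 of 3 endothelial markers were bright enough to be tested. Of 4 fibroblast and stellate markers, the proteoglycan gene DCN fell (log2 change -1.25 ± 0.21, SE; limma adjusted p = 0.0218) and 3 did not pass. Leaving out 1 array at a time, DCN passed only without knockdown replicate 3. COL3A1 was at -0.54 ± 0.20, COL1A2 at 0.50 ± 0.20 and COL1A1 at 0.37 ± 0.20. Of the 4 differences 2 were negative and 2 positive. Groups did not overlap in DCN and COL3A1, with the knockdown lower, and in COL1A2, with the knockdown higher. That is 75% of the 4, against 22.2% of all genes tested. The summed intensity of these 4, to which COL3A1 contributes most, was 466 to 514 in knockdown arrays and 599 to 723 in scrambled arrays. The part of these markers in the results below was not tested.

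SALL4 fell in the knockdown cultures to 40.6% of the level with scrambled shRNA. Its intensity was 120.7, 118.7 and 117.3 in knockdown replicates 1, 2 and 3, against 283.5, 264.3 and 335.4 in scrambled replicates 1, 2 and 3. Every knockdown array was below every scrambled array, and the 3 knockdown values lay within a few units of each other while the scrambled values were spread widely. The mean was 119 ± 1.67 with SALL4 shRNA and 294 ± 36.8 with scrambled shRNA (SD, n = 3 each). The log2 change was -1.30 ± 0.18 (SE), with a 95% interval from -1.70 to -0.91, so the level left was between 30.9% and 53.4% of the scrambled level. Limma gave an adjusted p of 0.0108 over the 13325 genes whose mean log2 intensity over the 6 arrays is at least 5, called the filtered fit below. In that fit 1.65% of genes passed at an adjusted p under 0.05, 140 lower (1.05%) and 80 higher (0.6%) in the knockdown. SALL4 had the 11th lowest p and the 48th most negative change. In the fit of all 18404 genes with no filter its adjusted p was 0.0946, and 0% of genes passed there (0 genes, with 2864, or 15.6%, at an unadjusted p under 0.05). An exact permutation test over the arrays, two-sided, gave p = 0.1, and 3 arrays a group cannot go lower. Leaving out both of the arrays that stood apart, knockdown replicate 2 and scrambled replicate 3, gave a limma adjusted p of 0.0685.

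**Figure D1:**
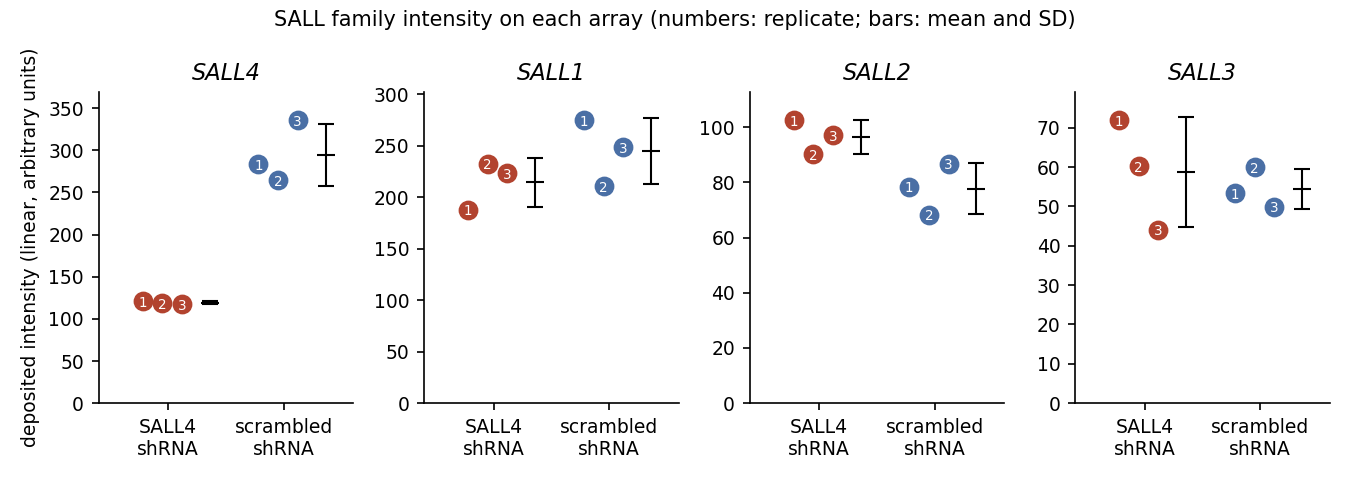
Deposited intensity (linear scale, from 0) of SALL4, SALL1, SALL2 and SALL3 on each array, SALL4 shRNA left and scrambled shRNA right; points are arrays with their replicate number, bars the mean and SD of 3 arrays. SALL4 sits between 117.3 and 120.7 in knockdown arrays and between 264.3 and 335.4 in scrambled arrays; SALL2 is the other gene whose groups do not overlap, with knockdown above scrambled by a small margin.

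The level of SALL4 left was even over the knockdown arrays. The SD of log2 intensity over the knockdown arrays was 0.02 for SALL4, and 79 of the 13325 genes (0.593%) had a smaller one, where the median over genes was 0.23. Over the scrambled arrays the SD of SALL4 was 0.18, close to the median of 0.21, and 38.6% of genes had a smaller one. Relative to its own array's median, SALL4 was 2.34 to 2.48 times the median in knockdown arrays and 5.11 to 6.66 times in scrambled arrays, so it stayed above the median probe set after knockdown. In RNA pooled from whole cultures, loss of most SALL4 RNA in some cells and loss of part of it in every cell cannot be told apart. RefSeq lists 7 SALL4 pseudogenes and 1 of SALL1, 0 of which are named genes in this table; whether the probes of the parents also bind them was not tested, and the labels do not place the probes in the transcript.

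With scrambled shRNA the probe sets of all 4 family members were above the floor. SALL1 was at 245 ± 32.1, SALL2 at 77.8 ± 9.22 and SALL3 at 54.4 ± 5.15 (SD, n = 3 each), beside SALL4 at 294 ± 36.8. Against the median of each scrambled array, SALL1 was at 4.08 to 5.38 times, SALL2 at 1.32 to 1.72 times and SALL3 at 0.99 to 1.16 times. Of these, only SALL3 reached down to the array median, and 0 of the 24 values of the family lay at the floor. Probe sets bind their targets with different strength, so these intensities give no order of transcript amounts between the 4 genes.

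SALL2 was the paralog with non-overlapping groups, at slightly higher intensity in the knockdown, and it did not pass the test. Its intensity was 102.5, 90.2 and 97.2 in knockdown replicates 1, 2 and 3, against 78.4, 68.3 and 86.7 in scrambled replicates 1, 2 and 3. The lowest knockdown array exceeded the highest scrambled array by less than the SD of either group. The means were 96.6 ± 6.17 with SALL4 shRNA and 77.8 ± 9.22 with scrambled shRNA (SD, n = 3 each), and the log2 difference was 0.32 ± 0.18 (SE; limma adjusted p = 0.417 in the filtered fit and 0.279 with no filter). Groups did not overlap in 22.2% of the 13325 genes, and in 11.5% with the knockdown higher, so such a separation is frequent on these arrays. The 95% interval of the difference ran from -0.08 to 0.72, that is from 0.945 to 1.64 times the scrambled level. The exact two-sided permutation p was 0.1.

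SALL1 had overlapping groups and did not pass. It was at 187.6, 232.7 and 223.5 in knockdown replicates 1, 2 and 3, against 274.7, 210.8 and 248.5 in scrambled replicates 1, 2 and 3. Scrambled replicate 2 was below knockdown replicates 2 and 3. The means were 215 ± 23.8 with SALL4 shRNA and 245 ± 32.1 with scrambled shRNA (SD, n = 3 each), and the log2 difference was -0.19 ± 0.19 (SE; limma adjusted p = 0.677). Its 95% interval, -0.60 to 0.23, corresponds to 0.658 to 1.17 times the scrambled level.

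SALL3, measured close to the array median, varied widely with SALL4 shRNA and did not pass. It was at 71.9, 60.2 and 44.1 in knockdown replicates 1, 2 and 3, against 53.3, 60.0 and 49.9 in scrambled replicates 1, 2 and 3. The knockdown arrays held both its highest and its lowest value, and the groups overlapped. The log2 difference was 0.09 ± 0.21 (SE; limma adjusted p = 0.887), with a 95% interval from -0.38 to 0.55, or 0.77 to 1.47 times the scrambled level. Without knockdown replicate 1 the difference was -0.07. The log2 SD of SALL3 was 0.36 over the knockdown arrays and 0.14 over the scrambled arrays. A smaller SD was found in 77.8% of genes over the knockdown arrays and in 25.2% over the scrambled arrays.

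**Figure D2:**
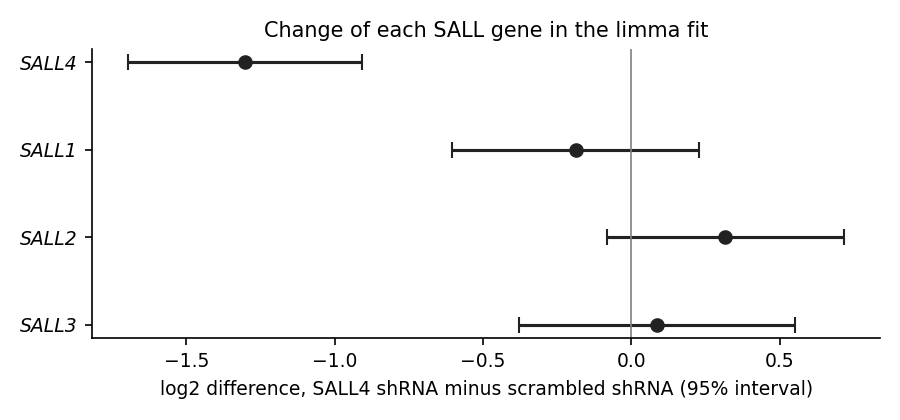
Log2 difference of each SALL gene, SALL4 shRNA minus scrambled shRNA, with its 95% interval from the filtered limma fit (n = 3 each). The interval of SALL4 (-1.70 to -0.91) lies below 0 and apart from those of SALL1, SALL2 and SALL3, which all include 0.

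Among the 3 paralogs, 0 passed in either direction, where 1.65% of all genes did. A limma unadjusted p under 0.05 in the filtered fit was reached by 0 of them and by 16.8% of all genes. With no filter SALL2 had an unadjusted p of 0.035 in limma. The upper ends of their intervals were 1.64 times the scrambled level for SALL2, 1.47 times for SALL3 and 1.17 times for SALL1. Rises smaller than these are within the error of 3 arrays a group, and a p that misses the threshold does not show that a paralog kept its level. None of the 3 intervals reached the 2.46-fold by which SALL4 differed.

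The change of SALL4 was set against that of each paralog within the same array, where any scaling of a whole array cancels. The log2 ratio of SALL4 to SALL2 was 0.23, 0.40 and 0.27 in knockdown replicates 1, 2 and 3, against 1.86, 1.95 and 1.95 in scrambled replicates 1, 2 and 3. The groups lay far apart, and the ratio varied little: its SD was 0.08 with SALL4 shRNA and 0.06 with scrambled shRNA, where SALL4 and SALL2 alone each had a scrambled log2 SD of 0.17 to 0.18. Over the knockdown arrays the log2 SD was 0.02 for SALL4 alone and 0.09 for SALL2 alone, so there the ratio varied about as SALL2 did. Scrambled replicate 3 was highest and scrambled replicate 2 lowest for both genes, an order that rests on 3 arrays. The log2 ratio of SALL4 to SALL1 averaged -0.85 ± 0.18 with SALL4 shRNA and 0.27 ± 0.20 with scrambled shRNA (SD, n = 3 each). For SALL4 to SALL3 it averaged 1.05 ± 0.34 with SALL4 shRNA and 2.43 ± 0.31 with scrambled shRNA. The differences were -1.62 against SALL2, -1.39 against SALL3 and -1.11 against SALL1. In all 3 ratios the groups did not overlap, and each exact two-sided permutation p was 0.1 (0.1 after Benjamini-Hochberg adjustment over the 3), the smallest this design allows, so the test cannot reach a threshold of 0.05.

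**Figure D3:**
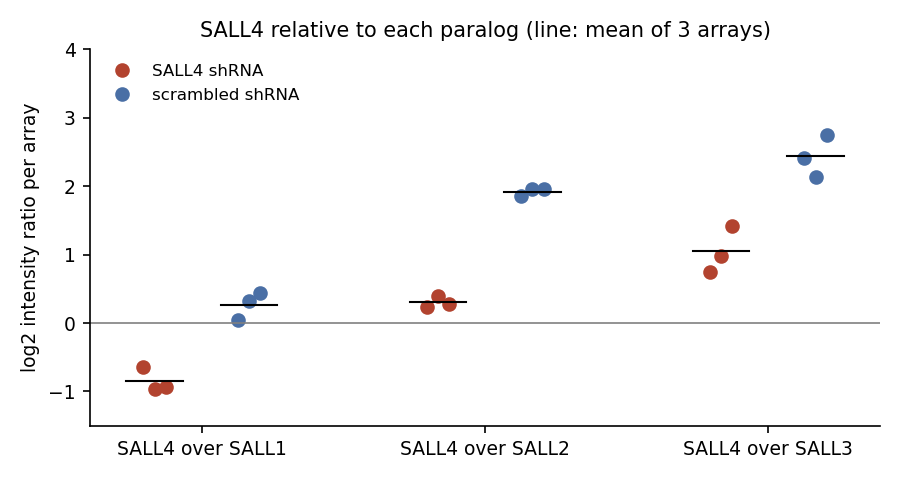
Log2 intensity ratio of SALL4 to each paralog on each array, SALL4 shRNA left of scrambled shRNA in each pair; lines are means of 3 arrays. Every knockdown ratio is below every scrambled ratio of the same pair, by a mean of 1.62 for SALL2, 1.39 for SALL3 and 1.11 for SALL1; the absolute height of a ratio also depends on the probes.

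The NuRD complex is the partner that the N-terminal motif of SALL proteins recruits. Of the 15 NuRD subunits 0 passed in the filtered fit, where 1.65% of all genes did. The list had 10 negative and 5 positive differences and a median of -0.30, beside a median of 0.02 over all genes tested, and 3 subunits had an unadjusted p under 0.05 (16.8% of all genes). Groups did not overlap in 5 of 15 (33.3%), against 22.2% of all genes. HDAC1, which supplies deacetylase activity, was at 668, 765 and 856 in knockdown replicates 1, 2 and 3, against 1297, 1460 and 1155 in scrambled replicates 1, 2 and 3. The groups were well separated, and the log2 difference was -0.77 ± 0.19 (SE; limma adjusted p = 0.0628). It passed under 2 of 18 alternatives. The limma adjusted p was 0.0429 in a fit of genes averaging at least 6 (log2) and 0.0135 with a trended, robust variance. HDAC1 did not pass when any 1 array was left out (limma adjusted p 0.099 to 0.191) or with no filter (0.127). MTA2, a core scaffold subunit, was at -0.49 ± 0.19 and RBBP4, a histone-binding subunit, at -0.67 ± 0.26. The second deacetylase gene, HDAC2, was at 0.30 ± 0.19, with the sign opposite to that of HDAC1.

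Thalidomide analogues direct SALL4 to degradation through cereblon, the substrate receptor of a CUL4 and DDB1 ubiquitin ligase that also takes IKZF1, IKZF3 and other C2H2 zinc finger proteins. Of 16 measured genes of this ligase and its substrates 13 were bright enough to be tested. Of these 0 passed, where 1.65% of all genes tested did, and so short a list gives that count little weight. Positive differences numbered 10 and negative ones 3, with a median of 0.09. Over all genes tested 6971 were positive and 6354 negative. Groups did not overlap in 3 of the 13 (23.1%), against 22.2% of all genes. CRBN, the cereblon gene, was at 370, 441 and 413 in knockdown replicates 1, 2 and 3, against 245, 314 and 257 in scrambled replicates 1, 2 and 3. All 3 knockdown arrays were above all 3 scrambled arrays, and the log2 difference was 0.59 ± 0.19 (SE; limma adjusted p = 0.129). CUL4B, a cullin scaffold, was at 0.46 ± 0.18 and ZBTB16, the gene of the zinc finger substrate PLZF, at 0.48 ± 0.18. Of the 3 lymphoid substrates, IKZF1 was at the floor on 5 of 6 arrays, and IKZF2 and IKZF3 stayed under 21.2 on all arrays.

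Genes described as SALL4 targets in other cells gave 0 calls among the 8 tested of 10 measured. Over all genes tested 1.65% were called, so 0 in so short a list carries little weight. Their differences were 3 positive and 5 negative, with a median of -0.05. ABCA3, a lipid transporter gene linked to drug efflux, was at 126, 99.1 and 153 in knockdown replicates 1, 2 and 3, against 159, 197 and 207 in scrambled replicates 1, 2 and 3. It was the 1 gene of the 8 with non-overlapping groups (12.5%, against 22.2% of all genes). Its log2 difference was -0.59 ± 0.21 (SE; limma adjusted p = 0.183). MYC, the growth-promoting transcription factor, was at -0.49 ± 0.23 with overlapping groups. GATA6, with the next lowest limma p, had a positive difference of 0.19 ± 0.24, also with overlapping groups. The liver progenitor and cancer stem cell marker EPCAM was at -0.10 ± 0.20 and the cyclin gene CCND1 at -0.06 ± 0.19. Developmental regulators that work upstream of or beside SALL genes in kidney, limb, heart and stem cells were the next list. Of 15 measured 9 were tested and 0 were called, against 1.65% of all genes. Their differences were 4 positive and 5 negative, with a median of -0.14. A limma unadjusted p under 0.05 was reached by 3 of the 9 (16.8% of all genes). These were GLI3, the hedgehog effector of limb patterning (-0.63 ± 0.21), TBX5, a heart and forelimb factor that activates Sall4 in the mouse embryo (-0.60 ± 0.26), and TBX3, its T-box relative (-0.49 ± 0.21). For TBX5 the groups overlapped: it was at 47.4, 38.5 and 48.4 in knockdown replicates 1, 2 and 3, against 43.9, 91.7 and 76.8 in scrambled replicates 1, 2 and 3.

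**Figure D4:**
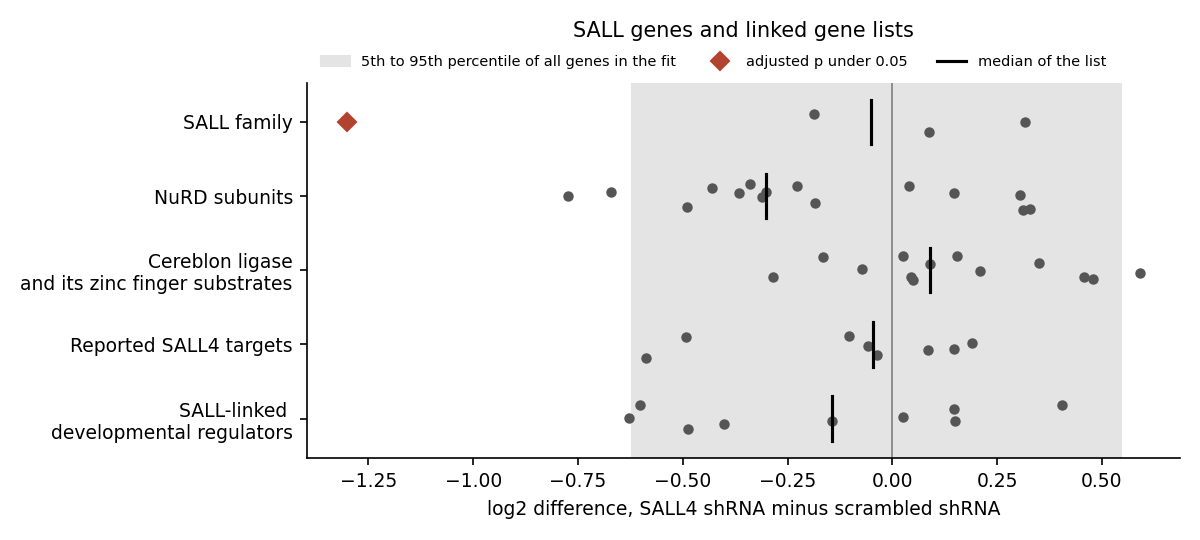
Log2 difference, SALL4 shRNA minus scrambled shRNA, of each tested gene of the SALL family and of 4 linked gene lists; black lines are list medians, the grey band spans the 5th to 95th percentile of all genes tested (-0.62 to 0.54), and the vertical spread within a list has no meaning. SALL4 at -1.30 is the only diamond, the mark of an adjusted p under 0.05.

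The genes whose log2 intensity followed SALL4 most closely over the 6 arrays were ranked by Pearson's r among 2816 genes that varied at least 2-fold across the arrays. The 8 highest were DDIAS (r = 0.99), WARS1, HMGN2, OGFRL1, GRIA4, SLC44A1, SDCBP and ACTA2 (0.98). With only 6 arrays in 2 groups, r mostly reflects the difference between the groups, and all points share the same arrays. A lower level in the knockdown therefore follows from how these 8 were chosen, and their values are a description with no test. Their log2 differences lay between -1.59 and -0.95. DDIAS, an anti-apoptotic gene of the DNA damage response, was at 121, 116 and 106 in knockdown replicates 1, 2 and 3, against 271, 234 and 275 in scrambled replicates 1, 2 and 3. All knockdown arrays were below all scrambled arrays. HMGN2, a nucleosome-binding protein gene, was at -1.49 ± 0.18 by its brightest probe set and at -0.998 ± 0.19 by the mean of its probe sets (SE). SDCBP, which encodes the adaptor syntenin, was at -1.59 ± 0.21, and the tryptophanyl-tRNA synthetase gene WARS1 at -1.09 ± 0.17 (SE).

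The 4 genes with the most opposite pattern had r between -0.996 and -0.988. SLC17A5, the lysosomal sialic acid exporter, was at 556, 609 and 592 in knockdown replicates 1, 2 and 3, against 314, 307 and 259 in scrambled replicates 1, 2 and 3, a log2 difference of 1.002 ± 0.18 (SE). TMEM59, a membrane protein of the Golgi and endosomes, was at 0.93 ± 0.17, and GTF2B, the general transcription factor TFIIB, at 1.36 ± 0.20. BAG5, a co-chaperone of HSP70, was at 0.81 ± 0.18. For SALL1 the closest patterns were those of POPDC3, SLC10A1 and ZSCAN5A (r = 0.96 to 0.97), for SALL2 those of NPFFR1, NAA25 and NECAP1 (0.97 to 0.98), and for SALL3 those of SV2A, SHISA4 and PSMA6 (0.97 to 0.98). The log2 differences of these 9 genes lay between -0.46 and 0.64.

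Genes next to the SALL loci were taken by RefSeq order, 5 measured genes on each side of each member, a choice made after the members' values were seen. Of the 28 such genes bright enough to be tested, 0 passed in the filtered fit, where 1.65% of all genes did. Beside SALL4, 6 of 8 tested neighbours had a negative and 2 a positive difference, with a median of -0.35. Of all 13325 genes tested 6354 were negative. In 5 of the 8 the knockdown arrays were all below the scrambled arrays, as in 1433 of the 13325 (10.8%). In 1 of the 8 they were all above, as in 11.5% of all genes tested. ATP9A, a phospholipid flippase gene and the nearest measured gene on the lower-coordinate side, was at 285, 266 and 231 in knockdown replicates 1, 2 and 3, against 356, 360 and 374 in scrambled replicates 1, 2 and 3 (log2 difference -0.48 ± 0.18, SE; limma adjusted p = 0.196). ZFP64, a zinc finger gene on the other side, was at 121, 118 and 118 in knockdown replicates 1, 2 and 3, against 146, 176 and 137 in scrambled replicates 1, 2 and 3 (-0.35 ± 0.18; limma adjusted p = 0.358). NFATC2, an NFAT transcription factor gene beyond ATP9A, was at -0.55 ± 0.22, and DPM1, which encodes a mannosyltransferase, at -0.50 ± 0.21. ZNF217, a zinc finger oncogene farther along chromosome 20, had the opposite sign at 0.75 ± 0.21 (limma adjusted p = 0.0866; 0.0335 with a trended, robust variance). DAD1, an oligosaccharyltransferase subunit gene farther along from SALL2, was at 0.61 ± 0.18 with all knockdown arrays above all scrambled arrays (limma adjusted p = 0.114; 0.0133 with a trended, robust variance). With no filter the limma adjusted p was 0.182 for ZNF217 and 0.128 for DAD1. The trended, robust variance called 486 of the 13325 genes, against 220 without it. The medians were -0.19 over 8 tested neighbours of SALL1, 0.04 over 6 of SALL2 and 0.18 over 6 of SALL3.

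**Figure D5:**
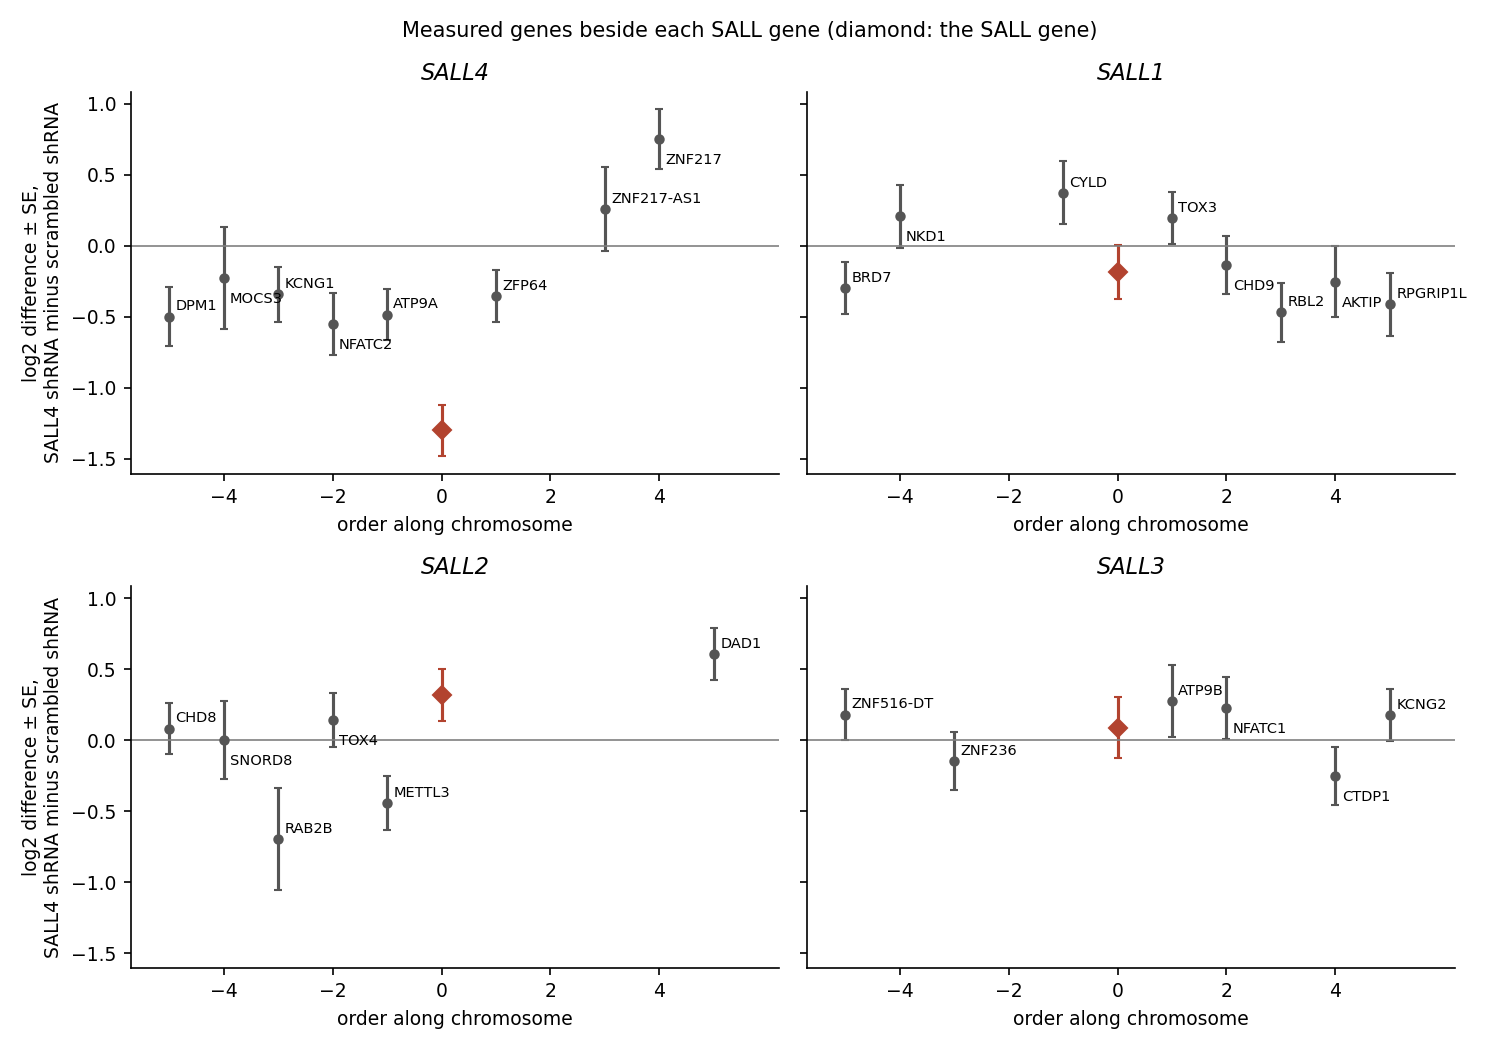
Log2 difference with its SE for the tested genes among the 5 measured neighbours on each side of each SALL gene, in chromosome order and not to distance; diamonds are the SALL genes. The 5 tested genes below SALL4 in coordinate order and ZFP64 above it are all negative, from -0.55 to -0.23, while ZNF217 is at 0.75.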

How the data were processed

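Expression was measured by Affymetrix array in 6 SNU-398 cultures. The deposited intensity of each probe set is linear with a floor at 10; RMA is named in the submitters' processing notes, with its version and later steps not given in sources used here. Log2 of the deposited intensity was taken. The platform annotation gives 19158 probe sets 1 gene symbol, 1388 several and 11773 none; 19128 symbols were updated by Entrez identifier. Each of 18404 genes was represented by its brightest probe set on average. No per-sample column was left unused.

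SALL4 shRNA was compared with scrambled shRNA by limma 3.58.1 in R 4.3.3 (lmFit, eBayes, two-sided), with Benjamini-Hochberg adjustment over all genes of a fit. The filtered fit kept 13325 genes averaging at least 5 (log2) over the 6 arrays, which drops dim genes, among them 552 held at the floor throughout and so without variance. Prior degrees of freedom (the weight of the spread pooled over genes) were 8.08 with the filter, 4.97 without those 552 alone and 1.09 with all genes. All 4 members are in the filtered fit. The script was tested on simulated arrays. The members, lists, markers and this filter were chosen with earlier results of these data known; each list is described by counts and its median, with no set test. Named from each list are the 3 members with the lowest p (and any called); IKZF genes, HDAC2, EPCAM, CCND1 and the neighbours were named after their values were seen. From the likeness ranking clone names, LOC, LINC, MIR and SNOR symbols were left out. The number of arrays limits the precision. The planned protein comparison was not made. Figures used Python 3.11.15 and matplotlib 3.10.9.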

Additional observations from a re-analysis of the deposited data

How the results depend on the processing

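The log2 change of SALL4 lay between -1.38 and -1.20 under all 18 alternatives and passed in 15 (adjusted p 0.00275 to 0.0461). It did not pass with no filter (-1.30, adjusted p = 0.0946), in a fit of all probe sets (-1.30, 0.0544), or when scrambled replicate 3 and knockdown replicate 2 were both left out (-1.20, 0.0685); leaving out any 1 array gave -1.38 to -1.20 with an adjusted p of 0.0289 to 0.0388, and the replicate block gave 0.0461 (-1.30). Same-numbered arrays did not deviate together (r = 0.000372, -0.0854 and -0.0411, and 0 of 3 knockdown arrays correlated best with their own number). With 3 arrays a group, this check cannot show whether cultures shared a day or a batch. SALL1 (-0.29 to -0.09) and SALL2 (0.23 to 0.45) kept their sign and did not pass in any alternative. SALL3 changed sign without knockdown replicate 1 (-0.0733) and without the 2 arrays together (-0.0063), with -0.0733 to 0.279 over single arrays left out, and had no value under the filter of 6, which it is too dim for. The 220 calls became 0 with no filter, 40 when only genes at the floor on all arrays were left out, 341 with a filter of 6, 486 with a trended, robust variance, 7 over all probe sets, 37 with the replicate block, 20 without the 2 arrays together, and 37 to 97 without any 1 array. Fewer arrays leave fewer degrees of freedom; the other causes were not tested. The NuRD count was 1, for HDAC1, with the filter of 6 and with the trended, robust variance, and 0 otherwise; the other 3 lists stayed at 0 throughout. The ratios of SALL4 to its paralogs kept their direction in the 8 alternatives that could alter them. In median-centred arrays SALL4 was at -1.25.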
